A study of Mus musculus with 8 samples.

Results

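HAI-1 deficient non-tumour mucosa was set against control tumours, to see which features of an intestinal tumour this mucosa had reached, lacked or exceeded. The 4 arrays compared, of 8 in the series, were chosen by their labels: 2 of non-tumour mucosa from HAI-1 deficient mice and 2 of tumours from control mice. The 2 arrays of control non-tumour mucosa served as the baseline. All mice were C57BL/6, carried the Min allele of Apc and ate the AIN-76 diet. The control mice were Apc (Min/+)/Spint1 (flox/flox), so their Spint1 alleles carried loxP sites but no Cre was present. The deficient mice were Apc (Min/+)/Spint1 (flox/flox)/Vil-Cre, in which the villin promoter drives Cre in the intestinal epithelium and leaves stromal and immune cells untouched. The labels name small intestinal mucosa as the tissue and give neither the ages of the mice nor the number of mice behind an array. They do not say that the arrays of a group come from separate mice, so p-values measure only the spread between these samples, which may be technical.

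HAI-1, the product of Spint1, is a Kunitz-type inhibitor on the surface of epithelial cells that holds in check membrane serine proteases such as matriptase and hepsin and the activator of hepatocyte growth factor. In Min mice, tumours arise after the remaining normal Apc allele is lost, which frees beta-catenin to switch on Wnt target genes. Such adenomas are known for stem cell and proliferation genes, for a stroma rich in fibroblasts and inflammatory cells, and for loss of the digestive and absorptive genes of mature enterocytes.

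RNA was labelled with biotin from 6 ug of total RNA and read on Affymetrix mouse arrays, and signals are given on the log2 scale of the deposited table, where a difference of 1 is a doubling. Arrays were scaled alike, with linear trimmed means of 500.003 to 500.004. Epithelial markers were bright in all 6 arrays used: Vil1, the brush border protein villin, read 14.04 to 14.63. RNA quality differed at 1 array: the 3' to 5' signal ratio of Gapdh was 25.9 on control tumour array 2 and 0.803 to 1.77 on the others, and that of Actb 2.32 against 1.15 to 1.52. The poly-A labelling spike-ins were bright on deficient mucosa array 2 and control mucosa array 2 (9.14 to 9.21) and dim on the other 4 arrays used here (7.57 to 8.0). Spint1 itself read 12.46 and 12.25 in deficient mucosa, 12.75 and 13.06 in control tumours, and 12.87 and 13.00 in control mucosa. Both deficient arrays lay below all control arrays. The difference from control tumours, -0.55 ± 0.24 (SE, n = 2 arrays per group), did not pass (limma, adjusted p = 0.185). Loss of Spint1 is therefore not shown by these values alone. Where its probe set lies relative to the loxP sites was not known.

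Of 13119 genes tested with limma, 857 (6.53%) differed between deficient mucosa and control tumours at an adjusted p under 0.05, 283 (2.16%) higher and 574 (4.38%) lower in deficient mucosa. The smallest adjusted p outside the threshold, 0.05024, was that of Tomm40l, and the largest inside it, 0.04987, that of Teddm3. The median difference over all genes was -0.16. Counts of called list members below are to be read beside the shares of 6.53%, 2.16% and 4.38%. For most lists, being short, 0 or 1 call is near these shares. For 7994 genes (60.9%) the arrays of the groups did not overlap. Control tumours differed from control mucosa at 3777 genes (28.8%), 2775 higher (21.2%) and 1002 lower (7.64%), and deficient mucosa from control mucosa at 138 (1.05%), 118 higher (0.899%) and 20 lower (0.152%). These comparisons share arrays, so their counts are not independent.

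The number of calls rested on every array compared. Leaving out 1 array leaves its group with a single array, which is then assumed to vary like the others. Without control tumour array 1, 243 genes passed. Without control tumour array 2, the array with the raised 3' to 5' ratios, 11 passed. Without deficient mucosa array 1 or 2, 23 and 63 passed. In each of these fits all 857 genes kept the sign of their difference. Where the arrays of the compared groups do not overlap, leaving 1 out cannot turn that sign, so this adds no support. Without either control mucosa array 478 genes passed. With a term for the spike-in split 353 passed, and on the arrays with dim spike-ins alone, which keep 1 deficient array, none passed. Of the 11 genes that passed without control tumour array 2 6 belong to the named genes: Vip, Igfbp5, Nptx2, Ptgs2, Tmem45a and Col1a2. The part of RNA quality in the other differences was not tested.

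**Figure D1:**
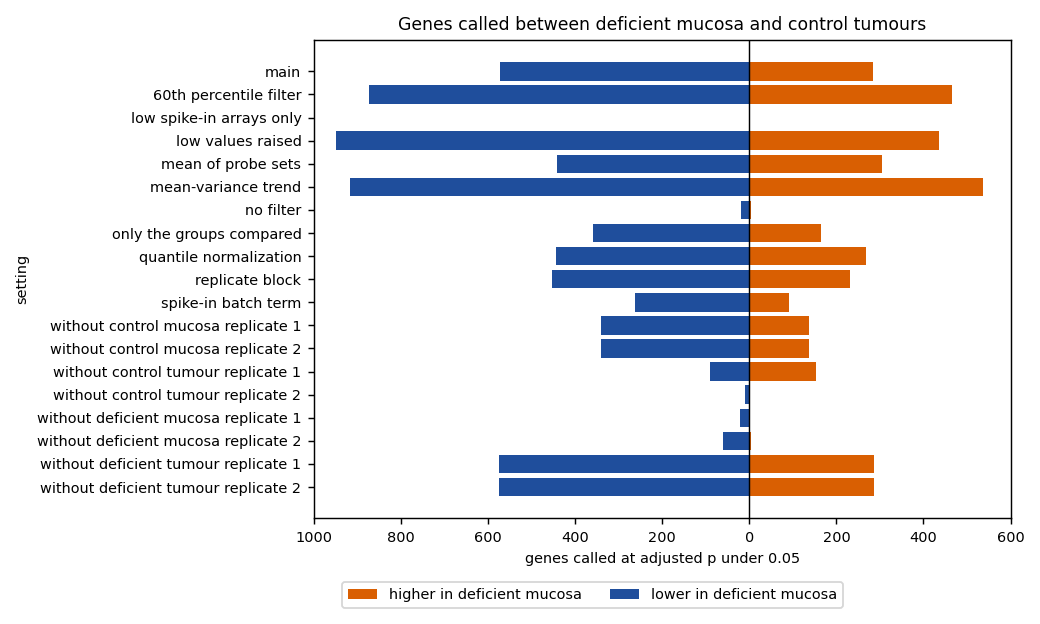
Number of genes called (adjusted p under 0.05) as lower (left, blue) or higher (right, orange) in HAI-1 deficient mucosa than in control tumours, on the horizontal axis, for each processing setting on the vertical axis. The counts are 283 higher and 574 lower as reported, and 0 higher and 11 lower without control tumour array 2.

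A tumour feature was taken as a gene that differed between control tumours and control mucosa at an adjusted p under 0.05 by at least 1 log2 with no overlap of the arrays. There were 2494 features higher in tumours (19% of genes tested) and 851 lower (6.49%). Deficient mucosa lacked 523 of the higher features (called lower than in tumours), reached 130 (not called, 95% interval of the difference within 1 log2 of 0, both arrays nearer to the tumour mean than to the mucosa mean) and exceeded 1. The remaining 1840 were not settled at this precision. Of the features lower in tumours, deficient mucosa lacked 241, reached 43 and exceeded 0, and 567 were not settled. The median deficient-mucosa level stood 44.3% of the way from control mucosa to control tumours for the higher features, and 28.3% for the lower ones. Classes and features share the control tumour arrays, so these are descriptions.

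The features were also taken from the HAI-1 deficient tumours, arrays that neither of the compared groups holds. The rule was the same: adjusted p under 0.05, at least 1 log2 and no overlap with the control mucosa arrays. Genes higher in deficient tumours by this rule numbered 2611, and their median difference between deficient mucosa and control tumours was -0.84. The 880 genes lower in deficient tumours had a median of 0.76. Of the higher ones 2084, and of the lower ones 568, were also features from control tumours, so the definitions overlap widely. With the features from deficient tumours 306 were reached and 13 exceeded, of both directions together, so the size of these classes depends on which tumours define them. Deficient tumours share the Spint1 genotype of deficient mucosa, and its part in these counts was not tested.

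**Figure D2:**
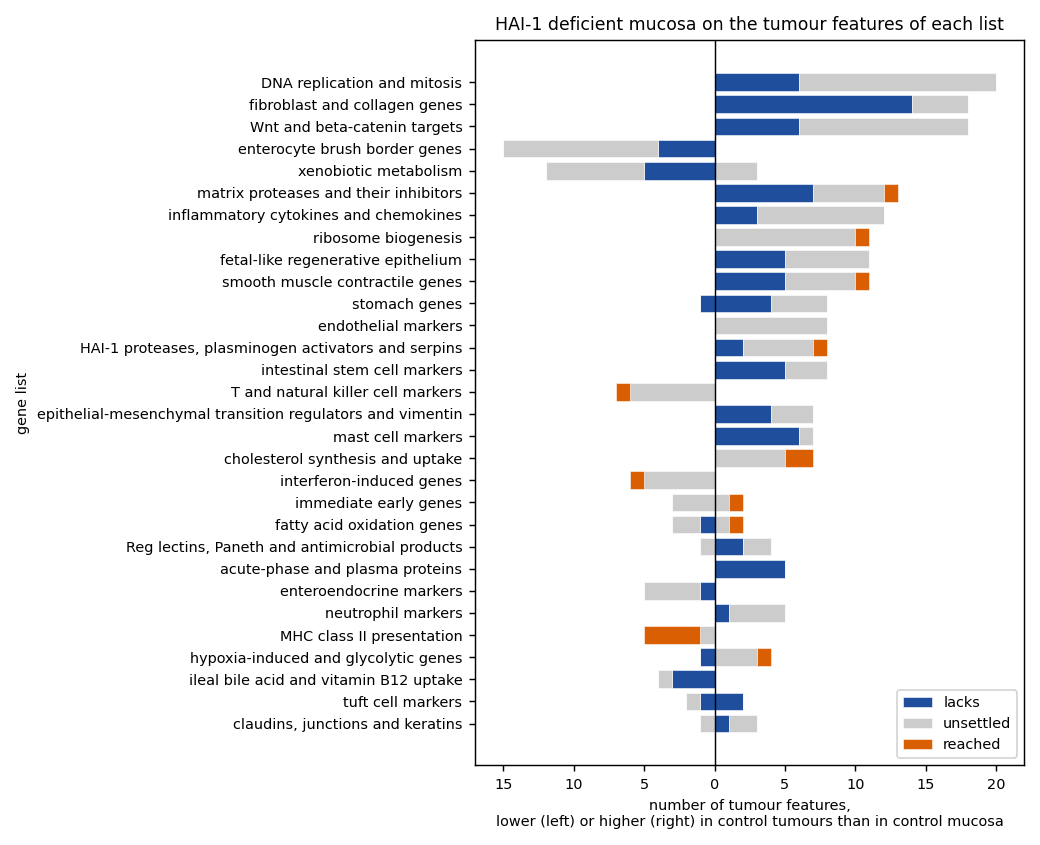
Number of tumour features per gene list, lower (left) or higher (right) in control tumours than in control mucosa, coloured by where HAI-1 deficient mucosa stood: lacking the feature (blue), unsettled (grey) or at the tumour level (orange). Fibroblast and collagen genes have 14 lacking features, the most of any list, and MHC class II genes have 4 at the tumour level.

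The genes that separated deficient mucosa most from tumours were those of mast cells, the granulated immune cells that store proteases and histamine. Of 9 mast cell markers tested, 7 were lower in deficient mucosa and none higher, with a median difference of -5.24. Cpa3, the carboxypeptidase of mast cell granules, read 6.45 and 6.45 in deficient mucosa, 11.64 and 11.73 in control tumours and 7.88 and 7.55 in control mucosa. Both deficient arrays lay below both control mucosa arrays as well, and the groups did not overlap. The difference from tumours was -5.24 ± 0.62, or 37.8-fold (adjusted p = 0.0129).

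The other called mast cell genes showed the same order. Fcer1a, a chain of the high-affinity IgE receptor, read 4.64 and 4.36 in deficient mucosa and 11.04 and 11.04 in tumours. Its deficient arrays were below 5.2, the value under which probe sets were filtered out, so it was at least 57.2-fold lower (adjusted p = 0.0136). Ms4a2, the beta chain of that receptor, read 3.31 and 4.17 against 9.40 and 9.89 and was at least 21.7-fold lower (0.00746). No deficient array came near a tumour array for either receptor chain.

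The mucosal mast cell protease Mcpt2 read 9.20 and 8.93 in deficient mucosa and 14.46 and 14.59 in tumours, a difference of -5.46 ± 0.71 (adjusted p = 0.0163). Mcpt1, another mucosal mast cell protease, read 8.48 and 7.47 against 13.98 and 13.65 and differed by -5.85 ± 0.98 (0.0244). The chymase Cma1 read 4.96 and 6.80 against 9.91 and 9.47 and was at least 12.9-fold lower (0.0245). Mcpt4 (at least 6.90-fold lower, adjusted p = 0.0722) and the receptor Kit (-0.95 ± 0.36, 0.138), which other intestinal cells also carry, did not pass. Summed on the linear scale, the 9 markers came to 1545 and 1597 in deficient mucosa, 2769 to 5778 in control mucosa and 45850 to 47283 in control tumours. None of the 9 passed between deficient and control mucosa (Cpa3 -1.27 ± 0.62, adjusted p = 0.351). In these bulk samples fewer cells of a type and less RNA per cell cannot be told apart. Without control tumour array 1 or 2, 4 and 0 of the markers passed, and without deficient array 1 or 2, 0 and 2, at medians of -5.20 to -5.29. With values under 5.2 raised to it the median of the 9 was -4.44.

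**Figure D3:**
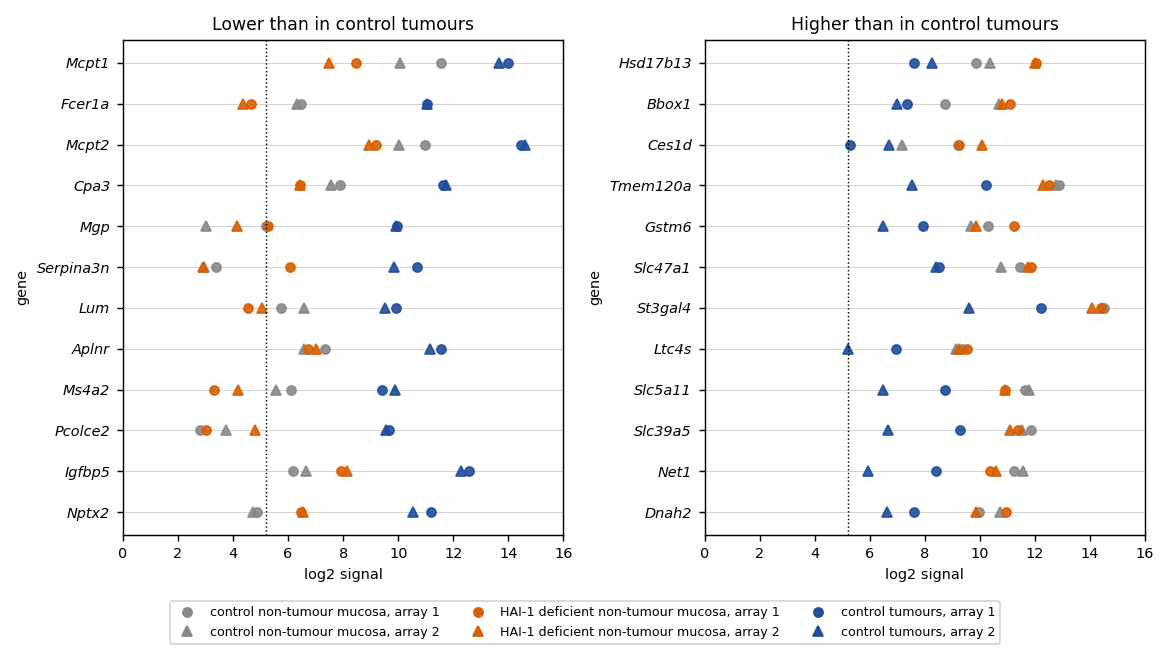
Log2 signal (horizontal axis) on each array for the 12 genes lowest (left) and the 12 highest (right) in HAI-1 deficient mucosa against control tumours, with 1 point per array and the filter value of 5.2 as a dotted line. Mast cell genes lead the left panel, with Cpa3 at 6.45 in deficient mucosa and 11.64 and 11.73 in tumours, and in the right panel control tumour array 2 lies well below array 1 for several genes, such as Tmem120a (10.23 and 7.55).

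Stromal genes made up the next block of features that deficient mucosa lacked. Of 20 fibroblast and collagen genes, 14 were lower and none higher than in control tumours, with a median of -2.21. Col1a2, a chain of type I collagen, read 9.67 and 9.39 in deficient mucosa, 12.77 and 12.46 in tumours and 8.19 and 8.44 in control mucosa. Deficient mucosa lay between the other groups without overlap, and 8.49-fold below tumours (-3.09 ± 0.25, adjusted p = 0.00746). Col5a2, of type V collagen, had nearly the same difference (-3.07 ± 0.27, 0.00746), and so had the small proteoglycan decorin, Dcn (-2.99 ± 0.34, 0.0128).

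Not all stromal genes stood between mucosa and tumour. Lumican, Lum, another proteoglycan of collagen fibrils, read 4.56 and 5.04 in deficient mucosa, 9.91 and 9.50 in tumours and 5.75 and 6.59 in control mucosa. Its deficient arrays were the lowest of the 6, at least 22.7-fold below tumours (adjusted p = 0.00746). Periostin, Postn, a matrix protein of activated fibroblasts, read 4.59 and 5.22 against 9.60 and 8.92 in tumours and was at least 16.5-fold lower (0.0128). Fibronectin, Fn1, differed by -2.74 ± 0.27 (0.00762). The type VI collagen chain gene Col6a2 did not pass (-0.81 ± 0.37, 0.202). On the linear scale the 20 genes summed to 8942 and 11498 in deficient mucosa, 4619 and 4743 in control mucosa and 45432 and 51285 in control tumours. What share of this lies in the number of fibroblasts was not tested. Leaving out control tumour array 1 or 2 left 10 and 1 calls, and leaving out deficient array 1 or 2 left 4 and 8.

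Secreted proteins outside that list were among the widest differences. Igfbp5, which binds insulin-like growth factors, read 7.91 and 8.14 in deficient mucosa, 12.58 and 12.27 in tumours and 6.19 and 6.64 in control mucosa. Deficient mucosa thus stood above both baseline arrays and 21.1-fold below tumours (-4.40 ± 0.27, adjusted p = 0.00254). Nptx2, a neuronal pentraxin, was 20.6-fold lower than in tumours (-4.37 ± 0.31, 0.00371), and the receptor of apelin, Aplnr, 22.2-fold lower (-4.47 ± 0.44, 0.00762). Dimmer probe sets gave smaller differences, -0.68 for Igfbp5, -2.03 for Nptx2 and -1.52 for Aplnr. The matrix Gla protein gene Mgp was at least 26.2-fold lower (0.0163) and the procollagen-processing enhancer Pcolce2 at least 21.1-fold lower (0.0213). Vip, the neuropeptide of enteric nerves, read 4.60 and 4.47 in deficient mucosa, 9.75 and 9.37 in tumours and 4.24 and 4.06 in control mucosa. All 4 mucosa arrays were below the filter value, so their levels have no order, and deficient mucosa was at least 20.5-fold below tumours (0.00163). Vip was the 1 gene of 10 neuron and glia markers to pass. Igfbp5, Nptx2 and Vip passed without control tumour array 2 as well (adjusted p = 0.0256, 0.0256 and 0.0238), and Vip passed without any 1 of the 4 arrays compared (0.0128 to 0.035).

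Contractile and mesenchymal genes followed, with some exceptions. Of 13 smooth muscle genes 5 were lower in deficient mucosa (median -1.85), led by Tagln, an actin-binding protein of smooth muscle (-2.68 ± 0.49, adjusted p = 0.0298). Acta2, smooth muscle actin, read 10.50 and 10.06 in deficient mucosa, 12.10 and 13.07 in tumours and 9.35 and 9.23 in control mucosa, and differed from tumours by -2.30 ± 0.38 (0.0244). Desmin, Des (-1.43 ± 0.48, 0.112), and the myosin heavy chain Myh11 (-1.50 ± 0.67, 0.195), which define mature muscle, did not pass. Of 7 genes tied to epithelial-mesenchymal transition, Vim, Zeb1, Snai2 and S100a4 were lower (median of the 7, -2.01). The transcription factor Zeb1 read 6.57 and 6.39 in deficient mucosa, 8.47 and 8.74 in tumours and 6.13 and 5.73 in control mucosa, a difference from tumours of -2.13 ± 0.28 (0.0163). With control tumour array 1 or 2 left out, 3 and 0 of the smooth muscle genes and 2 and 0 of the transition genes passed, and with either deficient array left out, 0.

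Matrix proteases were also below the tumour level. Of 16 matrix proteases and inhibitors tested 7 were lower than in tumours (median -1.22), and 1 feature was reached. Mmp10, stromelysin 2, read 11.03 and 9.83 in deficient mucosa, 12.62 and 12.44 in tumours and 8.79 and 8.30 in control mucosa. It lay midway between the groups without overlap, 4.28-fold below tumours (-2.10 ± 0.41, adjusted p = 0.0331). Mmp13, a collagenase, differed by -2.07 ± 0.33 (0.0237), and the inhibitor Timp1 by -2.35 ± 0.30 (0.0158). The stromelysin Mmp3 was at least 6.05-fold lower (0.0228). Mmp14, the membrane-type protease, differed by -1.41 ± 0.27 (0.0329), but its 2 other probe sets pointed the other way (1.16 and 2.84), so its direction is not settled. Of 14 HAI-1 proteases, plasminogen activators and serpins, Serpina3n (at least 24.6-fold, 0.0239), the maspin gene Serpinb5 (-1.41 ± 0.29, 0.0358) and Serpinb6b (-1.35 ± 0.29, 0.0412) were lower. The tissue plasminogen activator Plat did not pass (-1.23 ± 0.42, 0.115). The protease hepsin, Hpn, an HAI-1 target, did not pass either (-1.16 ± 0.69, 0.312). Leaving out either control tumour array or either deficient array left at most 1 call in each of these lists.

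Epithelial tumour programmes stood part of the way. Of 24 Wnt and beta-catenin targets 6 were lower in deficient mucosa and none higher, with a median of -1.19. The median of the same genes was 2.54 in tumours and 1.47 in deficient mucosa, both against control mucosa. With values under 5.2 raised to it these medians were 2.24 and 1.05. Against control mucosa 18 of the 24 were called higher in tumours (21.2% of all genes) and 3 in deficient mucosa (0.899%). Lgr5, the receptor that marks intestinal stem cells, read 7.16 and 8.32 in deficient mucosa, 11.13 and 9.98 in tumours and 7.18 and 7.09 in control mucosa. Deficient array 1 sat at the mucosal level and array 2 above it, and the difference from tumours was -2.81 ± 0.48 (7.03-fold, adjusted p = 0.0249). Sox9, a transcription factor of the crypt, stayed near the baseline too (7.19 and 8.22 against 10.29 and 10.11 in tumours and 6.75 and 7.64 in control mucosa; -2.49 ± 0.42, 0.0245), and a dimmer probe set gave -1.26.

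Several other Wnt targets stood part of the way to the tumour level. Notum, a secreted enzyme that inactivates Wnt ligands, read 9.67 and 9.94 in deficient mucosa, 11.50 and 11.25 in tumours and 7.72 and 7.21 in control mucosa. It was 59.8% of the way to the tumour level, and still 2.97-fold below it (-1.57 ± 0.31, adjusted p = 0.0338). The adhesion receptor Cd44 was 42.6% of the way (-1.92 ± 0.28 from tumours, 0.021), and the membrane protein Ifitm3 56.2% (-1.34 ± 0.25, 0.0305). The cyclin Ccnd1 stood at 15.7% (-1.15 ± 0.27, 0.0485). The Wnt inhibitor Nkd1 did not pass (-1.69 ± 0.65, 0.143). None of the 24 passed with 1 of the tumour arrays or 1 of the deficient arrays left out, at medians of -0.80, -1.35, -0.89 and -1.41.

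Stem cell and proliferation genes remained below the tumour level. Of 14 stem cell markers 5 were lower than in tumours (median -1.03), among them Smoc2 (-2.40 ± 0.37, adjusted p = 0.0221), Prom1 (-1.97 ± 0.31, 0.0232) and the RNA-binding protein Msi1 (-1.79 ± 0.27, 0.0213). Smoc2 read 8.67 and 9.47 in deficient mucosa, 11.58 and 11.37 in tumours and 8.51 and 9.18 in control mucosa, so the deficient arrays were next to the mucosal ones; a dimmer Smoc2 probe set gave -0.36. Of 23 genes of DNA replication and mitosis 6 were lower (median -1.23), including the replication helicase subunits Mcm5 (-1.89 ± 0.43, 0.0467) and Mcm7 (-1.48 ± 0.28, 0.0329) and the mitotic cyclin Ccnb2 (-1.49 ± 0.30, 0.0339). Mcm7 read 10.94 and 11.53 in deficient mucosa, 12.82 and 12.62 in tumours and 10.66 and 10.98 in control mucosa, the same order. None of 18 ribosome biogenesis genes passed (median -0.50), while 12 were called higher in tumours than in control mucosa, against 21.2% of all genes. The nucleolar protein Nop56 came close (-1.10 ± 0.28, 0.0561). Leaving out either control tumour array or either deficient array left 0 calls among the stem cell and replication genes.

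Genes of fetal-like regenerating epithelium and of the stomach, many of them higher in these tumours than in mucosa, stood in between in deficient mucosa. Of 12 fetal-like genes 5 were lower than in tumours (median -1.22). Anxa10, a stomach-type annexin, read 10.82 and 11.18 in deficient mucosa, 13.30 and 13.46 in tumours and 9.24 and 8.87 in control mucosa. It had risen from the baseline (1.94 ± 0.26, adjusted p = 0.0348) and stayed 5.21-fold below tumours (-2.38 ± 0.26, 0.0125). Annexin A1, Anxa1, was 54.4% of the way to the tumour level (-1.51 ± 0.27 from tumours, 0.0274), and the keratin Krt7 46.4% (-1.20 ± 0.23, 0.0331).

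Of 15 stomach genes 4 were lower and 1 higher than in tumours. Tff2, a trefoil peptide of gastric mucus, read 7.89 and 7.72 in deficient mucosa, 12.04 and 12.07 in tumours and 3.85 and 5.71 in control mucosa, and was 19.0-fold below tumours (-4.25 ± 0.81, adjusted p = 0.0329). The gastrokine Gkn3 read 11.23 and 12.18 against 14.00 and 14.00 in tumours and 8.86 and 9.21 in control mucosa (-2.30 ± 0.36, 0.0221). Both genes stood between the groups. Ctse, the protease cathepsin E, differed by -2.19 ± 0.29 (0.0163), but another of its probe sets gave 2.20. Gastric lipase, Lipf, was the exception: it read 7.36 and 8.17 in deficient mucosa, 5.60 and 4.51 in tumours and 6.30 and 7.95 in control mucosa, at least 5.14-fold above tumours (0.0467). The gastric mucin Muc5ac read 7.97 and 7.97 in deficient mucosa and 5.06 and 2.84 in tumours, where it was below the filter value, and its difference of at least 6.81-fold did not pass (0.109). None of the fetal-like or stomach genes passed without control tumour array 2 or deficient array 1. Leaving out control tumour array 1 kept 1 fetal-like and 2 stomach calls, and leaving out deficient array 2 kept 1 and 3.

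Inflammatory and acute-phase genes of tumours were mostly not reached. Of 7 plasma and acute-phase proteins tested 6 were lower (median -2.32), and 5 of these were features higher in tumours. The other, Afp, was no tumour feature: its difference between control tumours and control mucosa was -1.12, which did not pass. Saa3, a serum amyloid made in inflamed tissue, read 8.45 and 7.66 in deficient mucosa, 12.75 and 11.19 in tumours and 7.01 and 6.73 in control mucosa, 15.1-fold below tumours (-3.92 ± 0.56, adjusted p = 0.0202). Haptoglobin, Hp, read 6.61 and 6.52, 10.71 and 9.0, and 1.48 and 1.75 in the same order. It was at least 2.57-fold above the baseline (0.0348), where both arrays were below the filter value, and 9.79-fold below tumours (-3.29 ± 0.60, 0.029). Albumin, Alb, was at least 19.0-fold lower than in tumours (0.0197).

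Of 21 inflammatory cytokines and chemokines 3 were lower (median -1.07): the prostaglandin synthase Ptgs2, the monocyte chemokine Ccl2 and the adhesion molecule Icam1. Ptgs2 read 7.25 and 7.43 in deficient mucosa, 11.09 and 10.15 in tumours and 6.69 and 6.55 in control mucosa, 9.74-fold below tumours (-3.28 ± 0.33, adjusted p = 0.00863). Il1b, for which tumour array 1 read 10.75 and array 2 read 8.72, did not pass (-2.82 ± 0.67, 0.0509). Lcn2, an iron-trapping protein of neutrophils and stressed epithelium, was 9.88-fold lower (-3.30 ± 0.70, 0.0399), and Arg1, arginase of myeloid cells, 6.63-fold (-2.73 ± 0.40, 0.021). Among 12 neutrophil and 16 macrophage markers no others passed (medians -1.09 and -0.64). Macrophage markers that did not pass pointed both ways: C1qa (1.56) and Itgam (1.33) higher, Cd14 (-1.48) and Adgre1 (-1.08) lower. The chitinase-like Chil3 read 6.32 and 6.29 in deficient mucosa, 7.73 and 8.22 in tumours and 0.00 and 1.40 in control mucosa, and its difference from tumours did not pass (-1.67 ± 0.48, 0.0771). With control tumour array 1 or 2 left out, 1 and 0 acute-phase genes and 1 and 1 inflammatory genes passed. Without deficient array 1 or 2, 0 and 1 acute-phase genes and 0 and 1 inflammatory genes passed. Neither Lcn2 nor Arg1 passed without any of these 4 arrays.

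Some absorptive and detoxifying genes that were low in tumours were higher in deficient mucosa. Of 28 enterocyte brush border genes 4 were higher than in tumours and none lower (median 1.05), while their median against control mucosa was -0.10. Mgam, the brush border maltase-glucoamylase, read 14.70 and 14.71 in deficient mucosa, 12.97 and 12.49 in tumours and 14.40 and 14.71 in control mucosa. The deficient arrays were at the mucosal level, 3.93-fold above tumours (1.97 ± 0.39, adjusted p = 0.0331). The neutral amino acid transporter Slc6a19 (2.02 ± 0.42, 0.0372), the peptidase Dpp4 (1.94 ± 0.38, 0.0339) and the microvillar motor Myo1a (1.27 ± 0.28, 0.0413) differed alike. Lactase, Lct, did not pass (1.69 ± 0.61, 0.125): tumour array 1 read 13.40 and array 2 read 11.25. The epithelial markers Vil1 (14.63 and 14.31 in deficient mucosa, 14.04 and 14.14 in tumours) and Fabp2 (15.29 and 14.91 against 14.89 and 14.97) differed much less. The part of the RNA ratio on control tumour array 2 in these calls was not tested. Leaving out control tumour array 1 left 4 calls, and leaving out control tumour array 2, either deficient array or either control mucosa array left 0.

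Of 8 genes of ileal bile acid and vitamin B12 uptake 4 were higher than in tumours (median 1.71), while their median against control mucosa was -0.48. Slc51a, a subunit of the basolateral bile acid transporter, read 12.82 and 12.31 in deficient mucosa, 11.15 and 10.49 in tumours and 13.02 and 13.04 in control mucosa. Deficient mucosa was below both control mucosa arrays but nearer to them, and 3.36-fold above tumours (1.75 ± 0.33, adjusted p = 0.0329). The other subunit, Slc51b, was 3.25-fold higher (1.70 ± 0.38, 0.046). Amnionless, Amn, part of the vitamin B12 receptor, read 11.66 and 12.10 in deficient mucosa, 10.27 and 8.52 in tumours and 13.36 and 13.09 in control mucosa. It lay between the groups, below both control mucosa arrays and 5.61-fold above tumours (2.49 ± 0.52, 0.0375). Its partner Cubn did not pass (2.46 ± 0.71, 0.0766). Nr1h4, the bile acid receptor, was 3.27-fold higher than in tumours (1.71 ± 0.38, 0.0438) and differed little between tumours and control mucosa (-0.56). Of these calls, 1 was kept when control tumour array 1 was left out, and 0 when control tumour array 2 or either deficient array was.

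Of 28 genes of xenobiotic metabolism 8 were higher than in tumours and none lower (median 1.09). The carboxylesterase Ces2a read 13.97 and 13.76 in deficient mucosa, 11.37 and 10.88 in tumours and 12.52 and 12.40 in control mucosa. Deficient mucosa stood above both groups, 6.65-fold above tumours (2.73 ± 0.36, adjusted p = 0.0168), although its difference from control mucosa did not pass (1.40 ± 0.36, 0.11). Cyp2j6, a cytochrome P450 of the intestine, had the same pattern (12.61 and 12.77, 10.24 and 10.36, and 11.01 and 11.29; 2.39 ± 0.34 from tumours, 0.0197). Cyp4f14, another cytochrome P450 (1.74 ± 0.25, 0.0206), and the glutathione transferase Gstm3 (1.68 ± 0.24, 0.0202) were instead at the mucosal level. Leaving out control tumour array 1 or 2 kept 2 and 0 calls, and leaving out deficient array 1 or 2 kept 1 and 0.

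Among called genes the widest difference above tumours was that of Hsd17b13, a hydroxysteroid dehydrogenase of lipid droplets. It read 12.03 and 11.98 in deficient mucosa, 7.62 and 8.24 in tumours and 9.85 and 10.37 in control mucosa. The deficient arrays were the highest of the 6, and 16.9-fold above tumours (4.08 ± 0.57, adjusted p = 0.0196). Bbox1, the last enzyme of carnitine synthesis, was 13.8-fold higher (3.79 ± 0.72, 0.0327), and the efflux transporter Slc47a1 10.2-fold (3.35 ± 0.59, 0.0265). For Tmem120a, St3gal4, Slc5a11, Slc39a5 and Net1, all among the 12 highest, control tumour array 2 read more than 2 log2 below array 1. Their differences fell from 3.29 to 3.50 with both tumour arrays to 1.99 to 2.17 with array 1 alone, and did not pass then. None of the 12 passed without control tumour array 2.

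Some metabolic regulators were higher in deficient mucosa than in tumours as well. Angptl4, an inhibitor of lipoprotein lipase, was 5.76-fold higher (2.53 ± 0.52, adjusted p = 0.0366). It was the 1 of 16 fatty acid oxidation genes to pass, beside 2.16% of all genes called higher. Of 17 hypoxia-induced and glycolytic genes 2 were higher than in tumours and none lower (median 0.28). Their median against control mucosa was 0.69 in tumours and 0.97 in deficient mucosa. The glycolytic regulator Pfkfb3 read 10.27 and 10.04 in deficient mucosa, 8.31 and 8.01 in tumours and 10.24 and 10.28 in control mucosa. It was at the mucosal level (2.0 ± 0.28 from tumours, 0.0199). The growth factor Vegfa was 2.39-fold higher (1.26 ± 0.26, 0.037). The glucose transporter Slc2a1 went the other way and did not pass (12.01 and 12.14 in deficient mucosa, 12.50 and 13.17 in tumours, 9.82 and 10.38 in control mucosa; -0.75 ± 0.32, 0.17). Gip, an enteroendocrine hormone, was 3.89-fold higher (1.96 ± 0.32, 0.0241), alone among 17 enteroendocrine markers and beside the same 2.16%. Pfkfb3 passed without control tumour array 1 (0.0448). The other 3 calls ended without any 1 of the 4 arrays compared, and so did that of Pfkfb3 for the remaining 3 arrays.

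**Figure D4:**
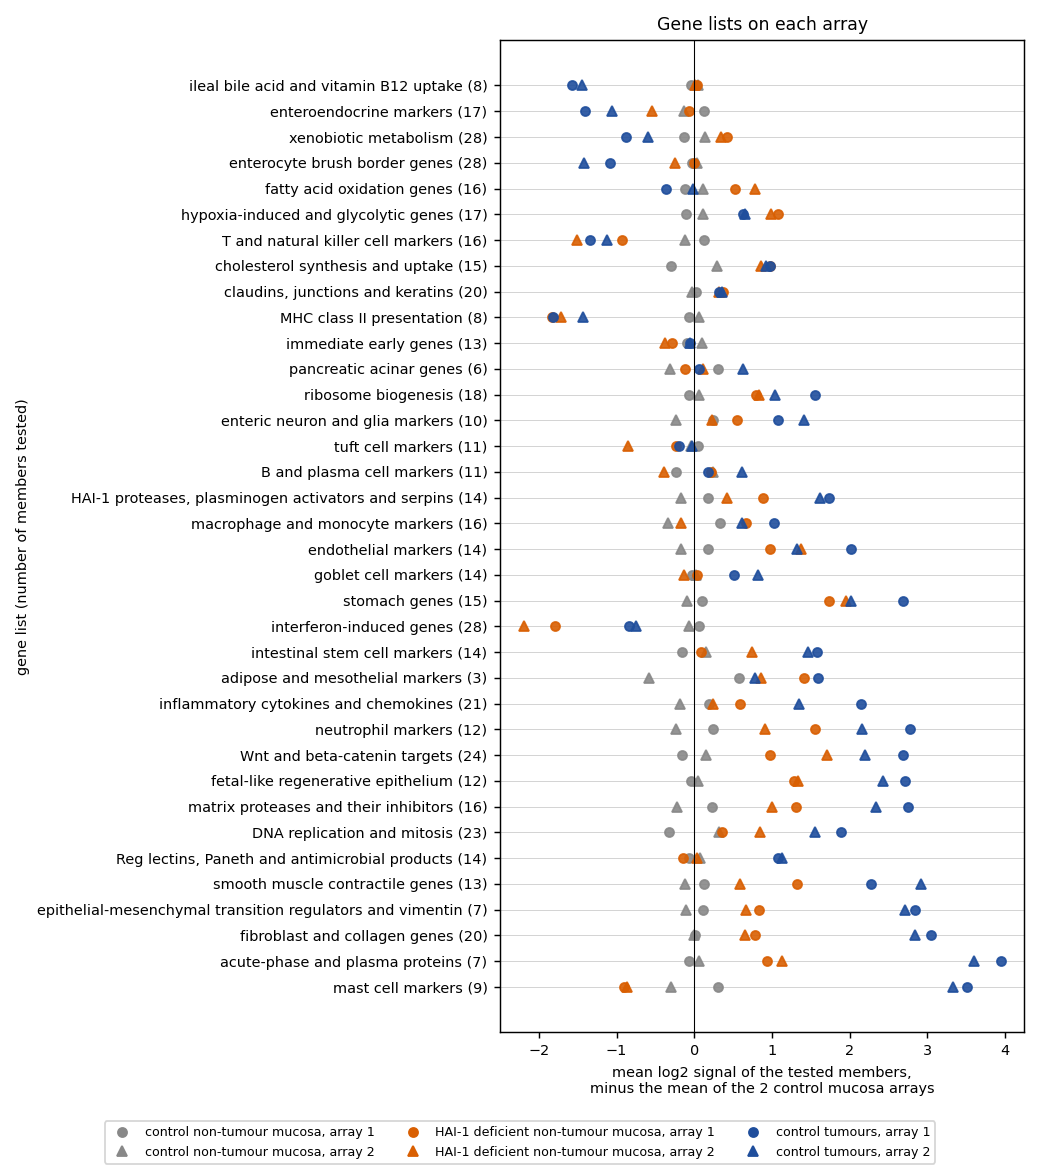
Mean log2 signal of the tested members of each gene list on each array (points), minus the mean of the 2 control mucosa arrays (horizontal axis), with lists on the vertical axis ordered by the median difference between HAI-1 deficient mucosa and control tumours. Mast cell markers (median -5.24) are the list farthest below tumours and ileal uptake genes (1.71) the list farthest above.

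Secretory and tuft cell genes were mixed. Of 14 goblet cell markers 2 were lower than in tumours (median -0.74): Spdef, the transcription factor of secretory cells (8.95 and 8.69 in deficient mucosa against 10.70 and 10.54; -1.80 ± 0.25, adjusted p = 0.0199), and the glycosyltransferase Galnt12 (-1.23 ± 0.29, 0.0483). Of 14 Reg lectins and antimicrobial genes Lcn2 and Reg4 (-2.27 ± 0.36, 0.0228) were lower (median of the 14, -1.37). The lectin Reg3a went the other way (2.69) and did not pass. Retnlb, a goblet cell cytokine, read 6.93 and 7.23 in deficient mucosa and 11.17 and 14.99 in tumours, and with that spread its difference of -6.00 ± 1.60 did not pass (0.0652). Of 11 tuft cell markers 3 were lower and 1 higher. The lipoxygenase Alox5 (-2.35 ± 0.39, 0.0244) and the actin-binding Avil (-1.84 ± 0.34, 0.0298) were lower. Ltc4s, leukotriene C4 synthase, was higher (9.53 and 9.24 against 6.93 and 5.21; 3.31 ± 0.52, 0.0228). The kinase Dclk1 was lower by its brightest probe set (-1.41 ± 0.33, 0.0483) while another gave 0.50. Krt18 was the 1 call among 20 claudins, junction proteins and keratins (-0.97 ± 0.22, 0.0481), near the 4.38% of all genes called lower. None of these passed without control tumour array 2 or either deficient array.

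Among the features that deficient mucosa had reached, the largest in tumours included genes of metabolism and contraction. Acot1, a thioesterase that releases free fatty acids, read 8.70 and 9.09 in deficient mucosa, 9.09 and 9.22 in tumours and 5.71 and 5.79 in control mucosa. All 4 arrays compared lay more than 2 log2 above the baseline, and the difference between the groups was -0.26, with a 95% interval of -0.87 to 0.34. Akr1b8, an aldo-keto reductase, read 12.11 and 11.72, 12.13 and 12.39, and 9.48 and 9.72 in the same order (-0.34, interval -0.95 to 0.27). The myosin light chain Myl9 read 11.16 and 11.02, 11.31 and 10.88, and 8.51 and 8.48 (-0.01, interval -0.92 to 0.90). Tcf23, Syngr1 and Als2cl completed the 6 largest, at differences of -0.38, -0.07 and 0.02. A second probe set of Syngr1 gave 1.04 and one of Als2cl 2.45, both outside the limit of this class. By the rule of this class each interval lies within 1 log2 of 0, and none lay within 0.5 log2.

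The features lower in tumours that deficient mucosa had reached were led by antigen presentation. H2-Ab1, a chain of the MHC class II molecule that shows peptides to helper T cells, read 11.57 and 11.37 in deficient mucosa, 11.17 and 11.85 in tumours and 13.98 and 13.48 in control mucosa. The deficient arrays lay between the tumour arrays and about 2 log2 below both mucosa arrays, and the difference from tumours was -0.05 (95% interval -0.78 to 0.69). Its 2 other probe sets above the filter gave 0.93 and 1.82, so the level reached rests on its brightest probe set. H2-Eb1 (0.22, interval -0.54 to 0.99) and H2-DMa, which loads peptides onto class II (0.34, interval -0.31 to 0.99), were also near the tumour level, but a second H2-DMa probe set gave 1.22. Of 8 class II genes tested none differed from tumours by limma (median 0.05). Against control mucosa 5 were called lower in control tumours (median -1.90; 7.64% of all genes) and 3 in deficient mucosa (median -1.87; 0.152% of all genes), comparisons that share the control mucosa arrays. The peptide transporter Tap2 and the chemokine Ccl5 of T cells were also at the tumour level (0.25, interval -0.35 to 0.86, and 0.31, interval -0.35 to 0.96). Beside 6.53% of all genes, none of 16 T and natural killer cell markers differed from tumours (median 0.20). Their mean log2 signal was 8.55 and 7.97 in deficient mucosa, 8.14 and 8.36 in tumours and 9.61 and 9.36 in control mucosa. Its part in the class II levels was not tested.

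**Figure D5:**
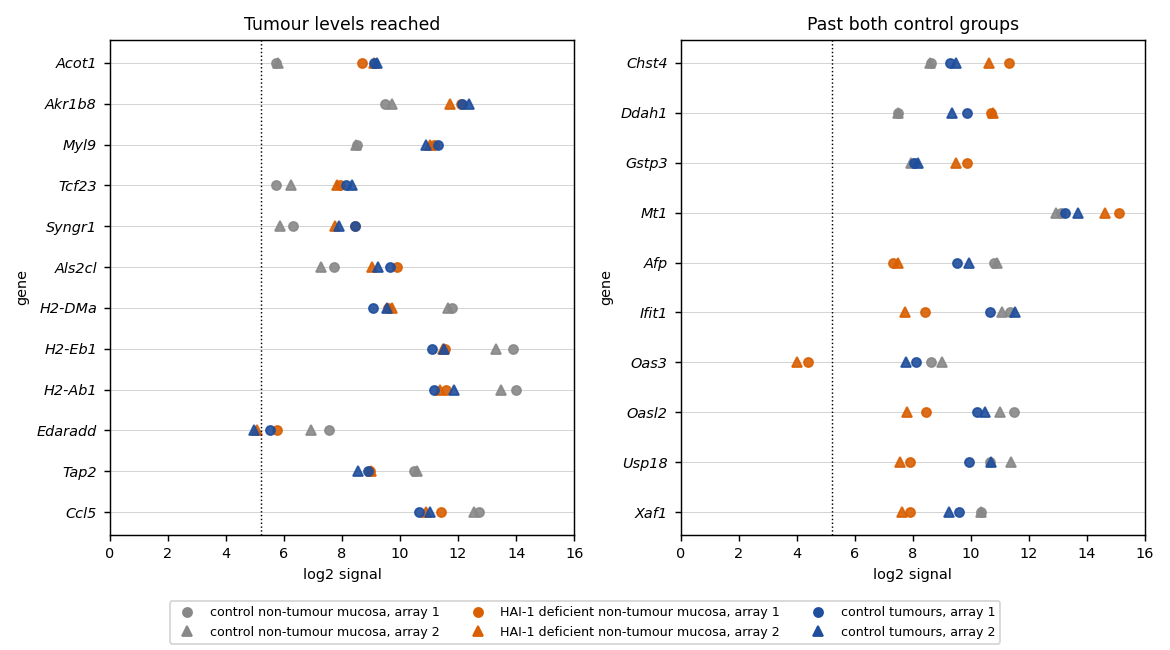
Log2 signal (horizontal axis) on each array for the 12 leading features that HAI-1 deficient mucosa had reached (left) and for the 10 genes called against both control tumours and control mucosa in the same direction (right), with 1 point per array and the filter value of 5.2 as a dotted line. For H2-Ab1 the deficient arrays (11.57 and 11.37) lie among the tumour arrays by its brightest probe set (its 2 others gave differences of 0.93 and 1.82), whereas for Oas3 (4.38 and 4.01) they lie below all control arrays.

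Deficient mucosa went past tumours at 1 feature. Ddah1, which breaks down methylated arginines that inhibit nitric oxide synthase, read 10.70 and 10.76 in deficient mucosa, 9.85 and 9.33 in tumours and 7.49 and 7.48 in control mucosa. It was 2.20-fold above tumours (1.14 ± 0.26, adjusted p = 0.047), a call that ended without any 1 of the 4 arrays compared and also without either deficient tumour array, which shares in the estimate of the spread (0.0564). In all, 10 genes were called in the same direction against both control tumours and control mucosa, comparisons that share the deficient arrays. The higher ones were Ddah1 and 3 genes picked after their values were seen: the sulfotransferase Chst4, the glutathione transferase Gstp3 and metallothionein 1, Mt1. Mt1, which binds zinc and copper, read 15.09 and 14.62 in deficient mucosa, 13.23 and 13.69 in tumours and 13.11 and 12.93 in control mucosa (1.40 ± 0.29 from tumours, 0.0381), by a probe set that can match related transcripts. Gstp3 differed from tumours by 1.58 ± 0.27 (0.0244) and Chst4 by 1.58 ± 0.30 (0.0312). None of the 10 genes passed against tumours without control tumour array 2.

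The 6 genes lower than both were Afp, the fetal plasma protein alpha-fetoprotein, and 5 interferon-induced genes, Ifit1, Oas3, Oasl2, Usp18 and Xaf1. Afp read 7.30 and 7.49 in deficient mucosa, 9.51 and 9.93 in tumours and 10.78 and 10.89 in control mucosa, a difference from tumours of -2.32 ± 0.50 (adjusted p = 0.0412). Interferons act through a short promoter element, the interferon-stimulated response element, whose core holds GAAA repeats. To show that element where these genes carry it, RefSeq promoters (GRCm38.p6, 250 bases before to 50 after the start) were searched on both strands for GAAA repeated after any 2 bases. Windows are shown for 3 genes called lower than in tumours and, picked after their values were seen, for 2 that were not called. Each is written 5' to 3' on the gene's strand, and capitals mark the match, which reads as repeated TTTC when it lies on the other strand.
Oas3, chr5:120777700-120777759, minus strand: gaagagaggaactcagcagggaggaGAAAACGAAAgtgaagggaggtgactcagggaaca
Ifit1, chr19:34640760-34640838, plus strand: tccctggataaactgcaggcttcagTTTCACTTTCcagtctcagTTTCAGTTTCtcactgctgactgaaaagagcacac
Rsad2, chr12:26456538-26456597, minus strand: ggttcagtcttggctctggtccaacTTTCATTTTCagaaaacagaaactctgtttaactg
Stat2, chr10:128270251-128270310, plus strand: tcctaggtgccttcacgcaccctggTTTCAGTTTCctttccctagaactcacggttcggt
Igtp, chr11:58199497-58199556, plus strand: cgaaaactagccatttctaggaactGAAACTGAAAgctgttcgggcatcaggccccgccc
The motif stood in the promoters of 13 of the 20 interferon-list genes with a promoter in the table (65%), against 1079 of all 27025 genes (3.99%). It stood in 3 of 6 called genes and in 10 of 14 that were not called, so its presence did not separate them at this threshold. Among those not called, Ifit3 (-2.10 against tumours, limma adjusted p = 0.0533) and Oas1a (-1.66, 0.0605) lay just outside the threshold. Stat2 (0.75) and Igtp (0.57), whose windows are shown, had the highest differences of the genes with the motif.

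Of 28 interferon-induced genes 8 were lower in deficient mucosa than in control tumours and none higher (median -0.91). Ifit1, which binds viral RNA and has the motif at 2 places, read 8.43 and 7.74 in deficient mucosa, 10.66 and 11.53 in tumours and 11.35 and 11.09 in control mucosa. Tumours were at the mucosal level (-0.12) and deficient mucosa lay 8.05-fold below tumours (-3.01 ± 0.50, adjusted p = 0.0239). Oas3, which makes the second messenger that activates RNase L, read 4.38 and 4.01 against 8.12 and 7.75 in tumours and 8.62 and 9.01 in control mucosa, at least 6.65-fold below tumours (0.0232). The antiviral enzyme Rsad2 differed from tumours by -2.85 ± 0.63 (0.043), the interferon feedback protease Usp18 by -2.58 ± 0.49 (0.0327) and Oasl2 by -2.21 ± 0.42 (0.0326). A dimmer Rsad2 probe set gave -0.87. Ifit2 was at least 6.35-fold lower (0.0395).

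Other members of the same list did not differ from tumours by this test. Ido1, an enzyme of tryptophan breakdown, read 8.84 and 8.38 in deficient mucosa, 9.73 and 9.83 in tumours and 12.31 and 11.97 in control mucosa, with a difference from tumours of -1.17 ± 0.49 (adjusted p = 0.168). Igtp, a GTPase of interferon-gamma responses, read 9.77 and 10.37, 9.54 and 9.46, and 12.40 and 12.05 in the same order (0.57 ± 0.41, 0.396). For both genes all tumour and deficient arrays read below both control mucosa arrays, whereas for Ifit1 the tumour arrays read 10.66 and 11.53 beside 11.35 and 11.09. Stat2 (0.75 ± 0.44, 0.307) also did not pass. In all, 7 of the 28 were called lower in control tumours than in control mucosa and 9 in deficient mucosa, against 7.64% and 0.152% of all genes. Without control tumour array 1 or 2, 2 and 0 of the 28 passed against tumours, and without deficient array 1 or 2, 1 and 0, at medians of -0.89 to -1.09.

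The remaining lists showed few or no calls against tumours by limma. None of 15 cholesterol synthesis genes passed (median 0.14), and their median was 1.06 in tumours and 0.96 in deficient mucosa, both against control mucosa. None of 14 endothelial markers (median -0.66), 11 B and plasma cell markers (-0.58) or 13 immediate early genes (-0.35) passed. Over all genes 6.53% passed, so a lack of calls in lists this short is near that share. None of 6 pancreatic acinar genes passed (median -0.50), and the acinar carboxypeptidase Cpa1 read 1.25 to 2.86 on the 6 arrays used, under the filter value. Cela1 was bright, at 10.85 and 11.12 in deficient mucosa, 12.27 and 12.07 in tumours and 9.86 and 9.51 in control mucosa. Prss2 went the other way (6.01 and 6.10 against 4.57 and 5.42 in tumours and 7.23 and 5.47 in control mucosa). A dimmer Prss2 probe set gave -0.13. On the linear scale the 6 genes summed to 3080 and 4445 in deficient mucosa, 6957 and 12425 in tumours and 2679 and 3128 in control mucosa. The fat hormone Adipoq was under the filter value on all 6 arrays used (0.75 to 4.82). The mesothelial marker Upk3b read 6.71 and 5.88 in deficient mucosa, 1.60 and 1.96 in tumours and 5.69 and 4.94 in control mucosa. Its mean was under the filter value, so it was not tested. Cidec, a lipid droplet protein, was the 1 call among 3 adipose and mesothelial markers tested (2.09 ± 0.48, adjusted p = 0.0481), and it ended without any 1 of the arrays compared.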

How the data were processed

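Small-intestinal RNA of 4 groups of 2 arrays was measured on Affymetrix arrays. The deposited log2 values cover 45101 probe sets. Per the submitters' processing notes MAS5 and RMA were used; the sources used here do not say for which step. Linear trimmed means near 500.003 are of the MAS5 kind, whose low values are noisy on the log2 scale. Values were used as deposited. Probe sets with a mean under the 40th percentile (5.2) were left out, and the brightest probe set with 1 gene stood for the gene. The annotation gave 34958 probe sets a single gene, 932 more than 1 and 9211 no gene. Symbols were updated to the RefSeq table of GRCm38.p6. Of 18194 genes, 13119 were tested with limma 3.58.1 in R 4.3.3, with 1 mean per group over all 8 arrays, two-sided, with Benjamini-Hochberg adjustment over all genes. Values in brackets after a difference are adjusted p-values of this fit. The fit was tested on simulated data. Folds given as at least so much have values under 5.2 raised to it.

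The arrays, the 36 gene lists and the tests were chosen with earlier results of these data known. Of 642 list genes 528 were tested. Genes were named by rule: the 12 highest and 12 lowest called genes, the 6 largest tumour features of each class and direction, up to 6 called and 4 other members of each list, defining markers, and Spint1. No label pairs arrays by replicate number. The correlation of same-numbered deviations was 0.0738 between deficient mucosa and control tumours, 0.22 between deficient and control mucosa and 0.109 between control mucosa and control tumours. With so few arrays their number limits precision. Alternatives covered the filter, low values, probe set choice, normalization, trend, samples fitted, spike-in split, replicate block and single arrays. Figures were drawn with python 3.11.15.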

Additional observations from a re-analysis of the deposited data

How the results depend on the processing

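The 857 calls kept their sign under the alternatives, except that the mean of probe sets kept it for 855. Of them, 707 were tested with the 60th percentile filter and 856 with quantile normalization. The trend, the replicate block and only the groups compared leave the difference itself unchanged. Leaving out 1 array cannot turn it where the groups do not overlap. In those settings the kept sign is therefore no support. The counts of calls, higher and lower, were 466 and 873 with a 60th percentile filter, 436 and 949 with low values raised, 536 and 917 with a mean-variance trend, 164 and 360 with only the groups compared, 91 and 262 with a spike-in term, 4 and 20 with no filter, and 0 and 0 on arrays with dim spike-ins alone. Leaving out 1 array gave 0 to 286 higher and 11 to 575 lower. The lacking features numbered 1189 with low values raised, 1199 with the trend, 456 with only the groups compared, 335 with the spike-in term, 23 with no filter, 0 on the dim spike-in arrays, and 463 for features of at least 2 log2. The reached features numbered 66 with no filter, 13 on the dim spike-in arrays, 306 with features from deficient tumours, 11 for features of at least 2 log2 and 0 within 0.5 log2. The exceeded features numbered 2 with the 60th percentile filter, 3 with low values raised, 3 with the trend, 4 with only the groups compared, 13 from deficient tumours, and 0 with the mean of probe sets, no filter, the dim spike-in arrays or the replicate block. Lists with a called member numbered 28, 3 with no filter and 0 on the dim spike-in arrays. Leaving out 1 array gave 11 to 741 lacking, 21 to 205 reached and 0 to 6 exceeded features, and 3 to 27 lists. The median of the adipose and mesothelial list turned from -1.03 to 0.44 with the 60th percentile filter and 1.02 with no filter, and that of the pancreatic list from -0.50 to 0.26 with no filter. With the replicate block, though no label pairs the arrays by number, 232 genes were higher and 454 lower. The cause of these changes was not tested.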
